A study of Homo sapiens with 4 samples.

Results

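The microRNAs miR-21, miR-31, miR-135b and miR-135a were followed in HCT116 cells, a human colorectal carcinoma line, with and without induction of a short hairpin RNA (shRNA) against SAE2. These miRNAs were chosen with earlier results of these data known. Their mature strands were then taken by name, as every strand of these 4 miRNAs among the 1345 mature miRNAs of the profile, which gave 7 strands. These were both strands of miR-21, miR-31 and miR-135b and the 5p strand of miR-135a, and other miR-135a strands were not analysed here. SAE2 (gene UBA2) is the catalytic part of the enzyme that activates SUMO, a small protein that cells attach to other proteins.

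The compared groups were 2 plus libraries and 2 minus libraries, read as with and without doxycycline, the drug that switches the shRNA on. Replicate 2 of each group is labelled sh2 and minus replicate 1 sh1. Plus replicate 1 carries no shRNA number and was placed with sh1 by elimination. Each group holds 1 library of each shRNA line as read here, all derived from HCT116, and the labels state 3 days of doxycycline for every library, so the reading of minus as not induced rests on that word. Whether each line is a clone is not given in the sources used here. Cells given doxycycline without an SAE2 shRNA were not analysed here, so the drug and the knockdown cannot be told apart.

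A miRNA is cut from a hairpin transcript into a duplex, of which the main strand is kept in the Argonaute protein and the minor strand is mostly lost. The loaded strand finds messenger RNAs by its seed, bases 2 to 8, and lowers their translation or stability. miR-21, miR-31 and miR-135b are known as oncomiRs of colorectal cancer, since tumours carry more of them than normal mucosa. Known targets are PDCD4 for miR-21, RASA1 for miR-31 and the Wnt pathway brake APC for miR-135a and miR-135b.

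The main strands and their seeds are shown because they define which family each strand belongs to. Sequences are from RefSeq (GRCh38.p14), written 5′ to 3′ with the seed in capitals. The table of sequences held 5 of the 7 strands.
miR-21-5p: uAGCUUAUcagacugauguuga
miR-590-5p: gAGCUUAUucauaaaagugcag
miR-31-5p: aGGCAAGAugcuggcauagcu
miR-135b-5p: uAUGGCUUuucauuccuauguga
miR-135a-5p: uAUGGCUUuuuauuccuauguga
miR-135b-3p: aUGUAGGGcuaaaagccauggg

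miR-590-5p is printed because it was the only other miRNA found with the seed of miR-21-5p. The RefSeq sequences searched held 1078 of the 1345 miRNAs of the profile. No other miRNA in these sequences had the seed of miR-31-5p. miR-135b-5p and miR-135a-5p share their seed and differ in 1 of 23 bases, C11U counted from the 5′ end of miR-135b-5p. That single difference lies outside the seed, so the seed does not separate them.

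The hairpins of the most abundant pair show the strand kept from each, here the 5p strand in capitals.
MIR21: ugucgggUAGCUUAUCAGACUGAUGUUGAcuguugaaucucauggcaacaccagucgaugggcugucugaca
MIR31: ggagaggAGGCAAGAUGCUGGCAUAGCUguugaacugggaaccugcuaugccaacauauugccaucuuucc

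On GRCh38.p14, MIR21 lies at chr17:59841266-59841337 on the plus strand. In GENCODE 29 this is within an exon of a transcript of VMP1, outside its coding sequence and annotated UTRs. MIR31 lies at chr9:21512115-21512185 on the minus strand, in an intron of the long noncoding gene MIR31HG. MIR135B lies at chr1:205448302-205448398 on the minus strand, in an intron of LEMD1. MIR135A1 lies at chr3:52294219-52294308 on the minus strand, in an intron of GLYCTK-AS1. Each of these host genes has the orientation of its hairpin. A further gene, MIR135A2, was looked for and was not among the sequences used, so its place is not given.

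Levels are read counts per mature miRNA as normalised by the authors, called normalised counts. Their totals were not equal, at 9833885 and 10519207 in plus replicates 1 and 2, and 9847531 and 9700472 in minus replicates 1 and 2. Between 1133 and 1180 miRNAs stood above 0.5 in a library. Epithelial miRNAs (miR-200 family, miR-141, miR-192, miR-194, miR-215) summed to 321729 and 321653 in the plus and to 283043 and 272263 in the minus libraries. Markers of blood and immune cells summed to 1037 and 1217 in the plus and 1009 and 1230 in the minus libraries. Most of each sum was miR-486-5p, at 853 and 998 in the plus and 789 and 1014 in the minus libraries. miR-451a followed at 108 and 115 in the plus and 103 and 115 in the minus libraries, while miR-223-3p lay between 2.08 and 5.10. None of 4 tested blood and immune strands passed the test of change described further on. Markers of stroma and endothelium summed to 20628 and 24075 in the plus and 23879 and 23838 in the minus libraries, with 4 of 9 tested strands risen and 2 fallen, where 13.4% of all miRNAs tested rose and 15.1% fell. The risen miR-199a-3p and miR-199b-3p have identical values and are 1 measurement under 2 names.

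The strands lay far apart in abundance, as the plot of rank and level shows. miR-21-5p ranked 1 in every library and miR-31-5p ranked 5 in every library. miR-135b-5p ranked 76 and 80 in the plus and 80 and 87 in the minus libraries, and miR-135a-5p between 520 and 596 over the 4 libraries. In order of level came miR-21-5p, miR-31-5p, miR-135b-5p, miR-21-3p, miR-31-3p, miR-135b-3p and miR-135a-5p, and the ranges over the 4 libraries of neighbours in this order did not overlap. Because mature miRNAs are of nearly equal length, no length correction was made, and unequal ligation of different small RNAs is part of any such order. The next miRNA after miR-21-5p was miR-100-5p, with a mean level of 1425615 against 2066976. miR-31-5p stood between miR-7-5p, at a mean level of 549056, and let-7f-5p, at 272173, and its range overlapped with neither. miR-744-5p lay just above miR-135b-5p and miR-18a-5p just below it, both with overlapping ranges. The other strands also overlapped their neighbours, miR-335-3p and miR-331-3p for miR-21-3p, miR-556-5p and miR-130b-3p for miR-31-3p, miR-130a-3p and miR-16-2-3p for miR-135b-3p, and miR-3173-5p and miR-5008-5p for miR-135a-5p.

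**Figure D1:**
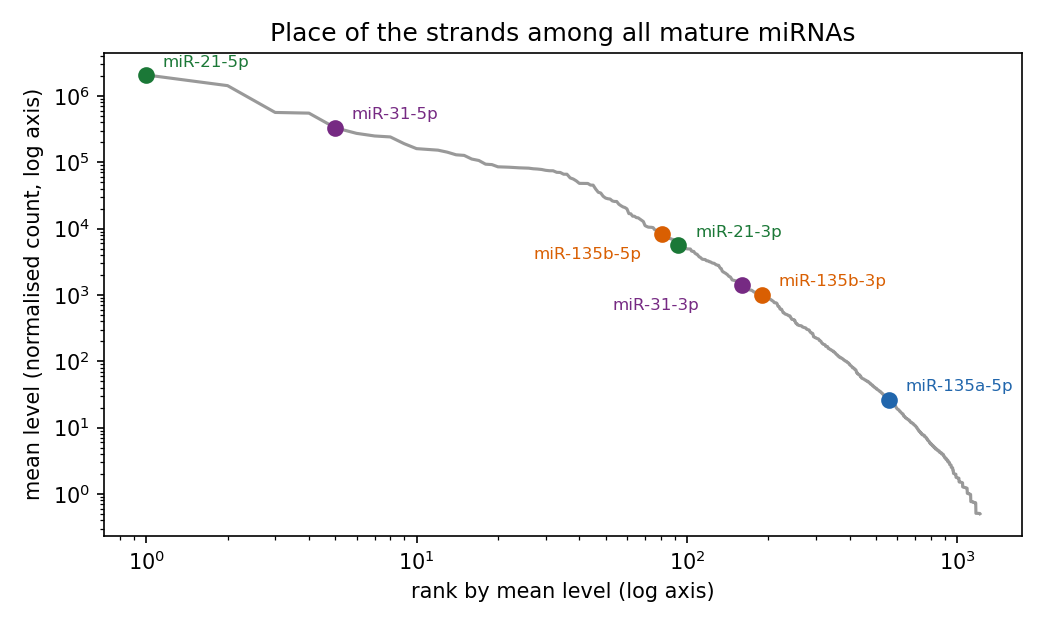
Mean level over the 4 libraries against rank, both on log axes, for all mature miRNAs with a mean above 0.5 (grey line), with the 7 strands as coloured points, 1 colour per miRNA. miR-21-5p stands at rank 1, miR-31-5p at rank 5 and miR-135a-5p at rank 558.

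Together the 7 strands made up 24.5% and 25.1% of the total in plus replicates 1 and 2, and 23.9% and 23.3% in minus replicates 1 and 2. miR-21-5p alone was 20.8% (95% exact binomial interval 20.8 to 20.9) and 21.7% (21.6 to 21.7) of the plus libraries. It was 20.5% (20.4 to 20.5) and 19.9% (19.8 to 19.9) of the minus libraries. Its share averaged 21.2% ± 0.578 in the plus and 20.2% ± 0.423 in the minus libraries (SD, n = 2 each), and both plus libraries lay above both minus libraries.

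miR-31-5p was 3.46% (3.45 to 3.47) and 3.28% (3.27 to 3.29) of the plus libraries, against 3.25% (3.24 to 3.26) and 3.27% (3.26 to 3.28) of the minus libraries. Plus replicate 1 stood apart, and plus replicate 2 was close to minus replicate 2. miR-135b-5p was 0.0980% (0.0961 to 0.10) and 0.0802% (0.0785 to 0.0820) of the plus libraries, against 0.0823% (0.0805 to 0.0841) and 0.0677% (0.0661 to 0.0693) of the minus libraries, so the shares of the groups overlapped. The exact two-sided permutation p of the shares was 0.333 for miR-21-5p and miR-31-5p, the smallest that 2 against 2 libraries can give, and 0.667 for miR-135b-5p. The intervals cover counting error only, since reads are not independent molecules.

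The next comparison asked whether the level of each strand differed with induction. miR-135b-5p was the 1 strand of 7 that passed, as a rise of 1.24-fold, and none passed as a fall. Across all 709 miRNAs tested, 28.5% passed, 13.4% as rises and 15.1% as falls. With only 7 strands, most of them paired in a hairpin, 1 call cannot be told apart from that share. In bulk RNA, fewer cells of a type and less RNA per cell cannot be told apart. Of the 7 strands, 5 lay higher and 1 lower in the plus libraries without overlap of the groups. Over all 709 miRNAs, 62.9% did not overlap, 29.1% higher and 33.9% lower in the plus libraries. These counts are of levels and depend on the scaling of the libraries. As shares of the library total, the groups of miR-135b-5p, miR-135b-3p and miR-135a-5p overlapped, and miR-31-3p lay lower in the plus libraries without overlap. Overlap of shares over all miRNAs was not counted. The median log2 change was 0.13 over the 7 strands and −0.03 over all miRNAs tested. It was 0.06 over the 190 miRNAs at a mean of at least 1000, a level that all 7 strands but miR-135a-5p reached. The test was limma on log2(level + 1) with Benjamini-Hochberg adjustment over all 709, and a change passed at an adjusted p under 0.05.

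miR-21-5p, the most abundant miRNA of the cells, had levels of 2049243 and 2278076 in plus replicates 1 and 2, and 2014353 and 1926230 in minus replicates 1 and 2. Both plus libraries were above both minus libraries, but the lower plus library exceeded the higher minus library by only 1.73%, and the plus libraries differed from each other by 11.2%. Its log2 change was 0.13, with a 95% interval from −0.05 to 0.32 (limma, adjusted p = 0.289). The interval leaves room for a rise of up to 1.24-fold and a decrease to 0.967-fold. By line, the difference was 1.73% for sh1 and 18.3% for sh2. Leaving out plus replicate 2 brought the log2 change to 0.057, and leaving out plus replicate 1 brought it to 0.21.

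miR-21-3p, the minor strand of the same hairpin, had levels of 5272 and 5523 in plus replicates 1 and 2, and 6040 and 5811 in minus replicates 1 and 2. Here both plus libraries lay below both minus libraries. The log2 change was −0.13, with a 95% interval from −0.31 to 0.04 (limma, adjusted p = 0.276). The main and minor strands of miR-21 thus had estimates of opposite sign, neither of which passed.

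miR-31-5p, whose hairpin lies within MIR31HG, had levels of 339969 and 344828 in plus replicates 1 and 2, and 319898 and 317555 in minus replicates 1 and 2. By level, this was the main strand with the smallest gaps between libraries of a group among miR-21-5p, miR-31-5p, miR-135b-5p and miR-135a-5p. Its libraries were 1.43% apart in the plus and 0.738% apart in the minus group. The groups did not overlap, and the lower plus library exceeded the higher minus library by 6.27%. Both statements depend on the scaling of the libraries. As shares of the library total, the plus libraries stood at 3.46% and 3.28%, and the lower of them was close to minus replicate 2 at 3.27%. The log2 change was 0.10, with a 95% interval from −0.06 to 0.27 (limma, adjusted p = 0.369). limma judges it against the spread of other miRNAs of like level, not its own alone.

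miR-31-3p, its minor strand, had levels of 1260 and 1434 in plus replicates 1 and 2, and 1630 and 1402 in minus replicates 1 and 2. It was the only strand of the 7 whose groups overlapped in level. The log2 change was −0.17, with a 95% interval from −0.39 to 0.05 (limma, adjusted p = 0.267).

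miR-135b-5p, which targets APC, had levels of 9639 and 8438 in plus replicates 1 and 2, and 8102 and 6568 in minus replicates 1 and 2. The groups did not overlap, though plus replicate 2 was only 4.15% above minus replicate 1. It rose to 9039 ± 849 in the plus libraries, against 7335 ± 1085 in the minus libraries (SD, n = 2 each). Its log2 change of 0.31 (standard error 0.09) had a 95% interval from 0.12 to 0.50 (limma, adjusted p = 0.0114). Within the lines the plus library was 19.0% higher for sh1 and 28.5% higher for sh2. The call depended on the processing: with equal library totals the log2 change was 0.25 (adjusted p = 0.122), and with minus replicate 2 left out it was 0.15 (adjusted p = 0.442). It was also lost without plus replicate 1, at 0.21 (adjusted p = 0.404), and without plus replicate 2, at 0.40 (adjusted p = 0.162). The summed epithelial miRNAs were higher in the plus libraries too, with 6 of 13 tested strands risen and none fallen (13.4% rose and 15.1% fell over all miRNAs tested), and their part in the result was not tested.

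miR-135b-3p, its minor strand, had levels of 1059 and 1061 in plus replicates 1 and 2, and 1039 and 895 in minus replicates 1 and 2. The plus libraries were 0.231% apart, and minus replicate 2 was the low library. The log2 change was 0.14, with a 95% interval from −0.09 to 0.37 (limma, adjusted p = 0.389).

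miR-135a-5p, the second miRNA with the miR-135 seed, had levels of 32.9 and 26.6 in plus replicates 1 and 2, and 25.2 and 20.7 in minus replicates 1 and 2. These correspond to about 58 reads in the plus against 47 in the minus libraries, a ratio of 1.25 with a 95% exact counting interval of 0.833 to 1.87. Its log2 change of 0.36 had a 95% interval from −0.32 to 1.03 (limma, adjusted p = 0.451), and did not pass. miR-135a-5p was 0.341% and 0.315% of miR-135b-5p in plus replicates 1 and 2, and 0.311% and 0.315% in minus replicates 1 and 2. The share was nearly the same in each library, and miR-135b-5p was the closest of 190 abundant miRNAs to the pattern of miR-135a-5p. Both rest on about 32 and 26 reads of miR-135a-5p in plus replicates 1 and 2, and 25 and 22 in minus replicates 1 and 2. Counts this low leave each share uncertain. With C11U as the only difference, a miR-135b-5p read that carries that base cannot be told apart from miR-135a-5p in these values, and its part in the level was not tested.

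**Figure D2:**
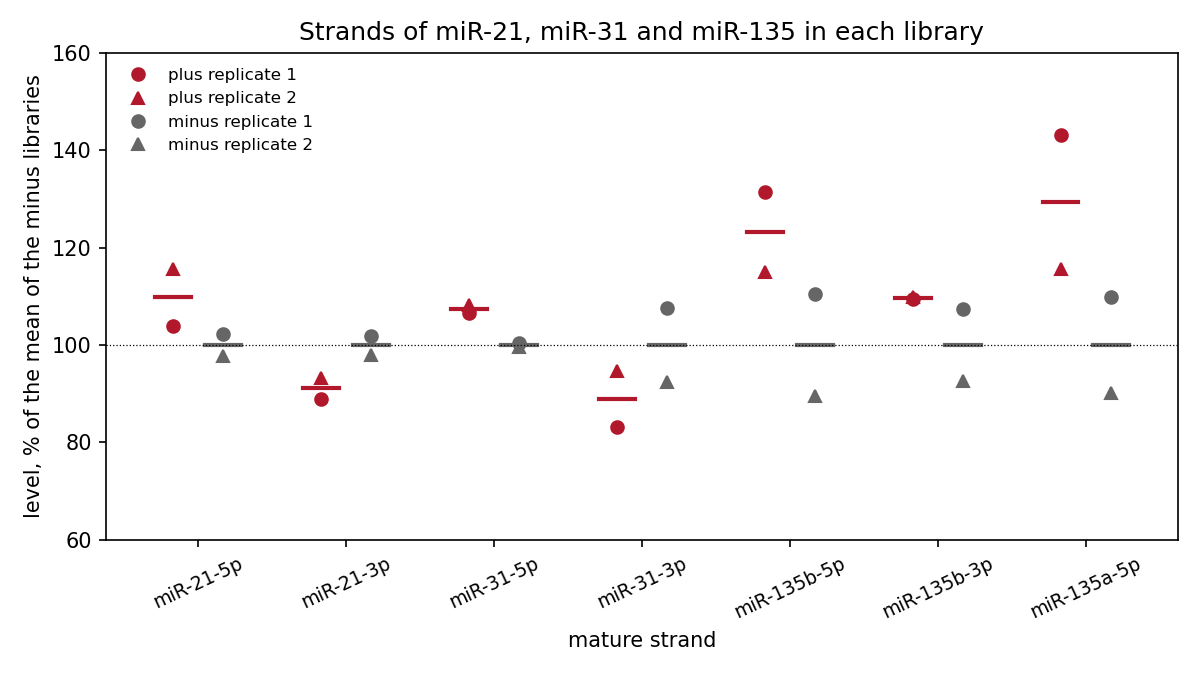
Level of each strand in each library as a percentage of the mean of its minus libraries, with plus libraries in red left of minus libraries in grey, circles for replicate 1, triangles for replicate 2 and bars for the mean of 2. The plus libraries of miR-135b-5p stand at 9639 and 8438 normalised counts, both above the minus libraries at 8102 and 6568, while those of miR-31-3p overlap.

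**Figure D3:**
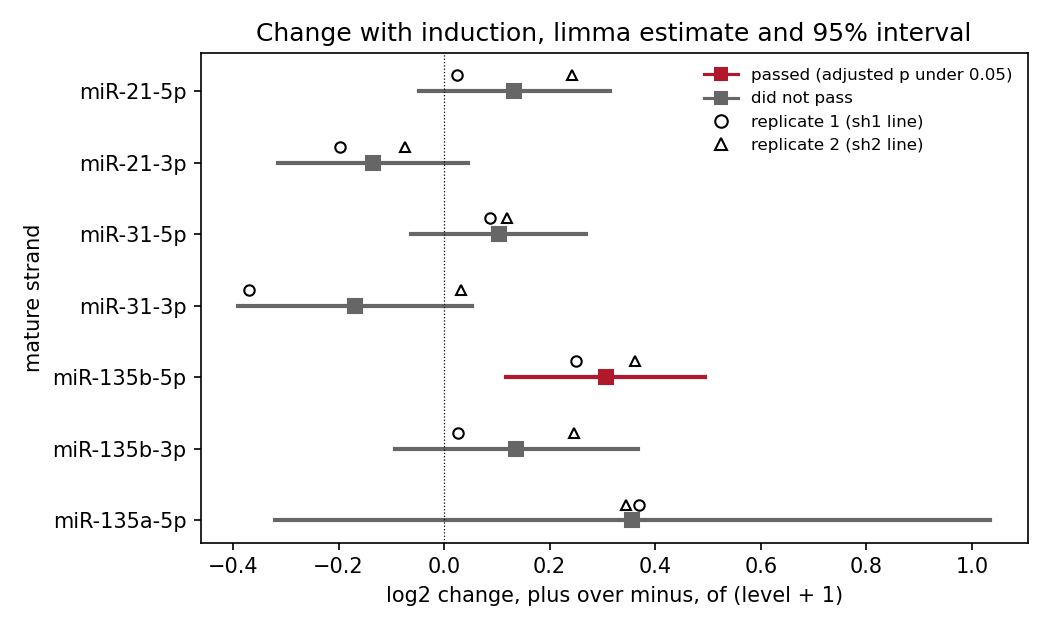
Log2 change, plus over minus, of level + 1 for each strand, as the limma estimate (square) with its 95% interval (line), red where it passed and grey where it did not, and open symbols for the change within each line. The interval lies above 0 only for miR-135b-5p, from 0.12 to 0.50, and is widest for miR-135a-5p.

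The ratio of main to minor strand is free of library scaling, since both strands are read in the same library. The 5p strand was the main one in all 3 hairpins with both strands measured. miR-21 had 5p to 3p ratios of 389 and 412 in plus replicates 1 and 2, and 333 and 331 in minus replicates 1 and 2. The plus libraries lay above the minus libraries, and the minus libraries were nearly equal. The ratio averaged 401 ± 16.8 in the plus and 332 ± 1.41 in the minus libraries (SD, n = 2 each).

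miR-31 had ratios of 270 and 240 in plus replicates 1 and 2, and 196 and 227 in minus replicates 1 and 2. The plus libraries were again above the minus libraries, with sh1 showing the wider gap. miR-135b had ratios of 9.10 and 7.95 in plus replicates 1 and 2, and 7.80 and 7.34 in minus replicates 1 and 2, the nearest to balance of the 3. Its minor strand made up 9.90% to 12.0% of the hairpin's reads, against 0.242% to 0.301% for miR-21 and 0.369% to 0.507% for miR-31. Among 183 hairpins with both strands tested, the median imbalance was 8.47 to 1. By imbalance miR-21 ranked 12, miR-31 ranked 17 and miR-135b ranked 93.

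None of the 3 ratios passed in a limma fit of the log2 ratio across all 183 hairpins. The log2 change in ratio was 0.27 for miR-21 (95% interval −0.07 to 0.60, adjusted p = 0.312), 0.27 for miR-31 (−0.12 to 0.66, adjusted p = 0.364) and 0.17 for miR-135b (−0.17 to 0.51, adjusted p = 0.584). All 3 hairpins had plus libraries above minus libraries without overlap, which 23% of the 183 did, and 51.4% did not overlap in one direction or the other. In that limma fit 0 of 183 hairpins passed (0%) and 42 had an unadjusted p under 0.05. The fit is sensitive to how the spread is modelled: when it was allowed to follow the level of the lower strand, a choice made after seeing the data, 19.7% of hairpins passed. The miR-21 ratio was then among them (adjusted p = 0.0281), with miR-31 at 0.0514 and miR-135b at 0.351.

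**Figure D4:**
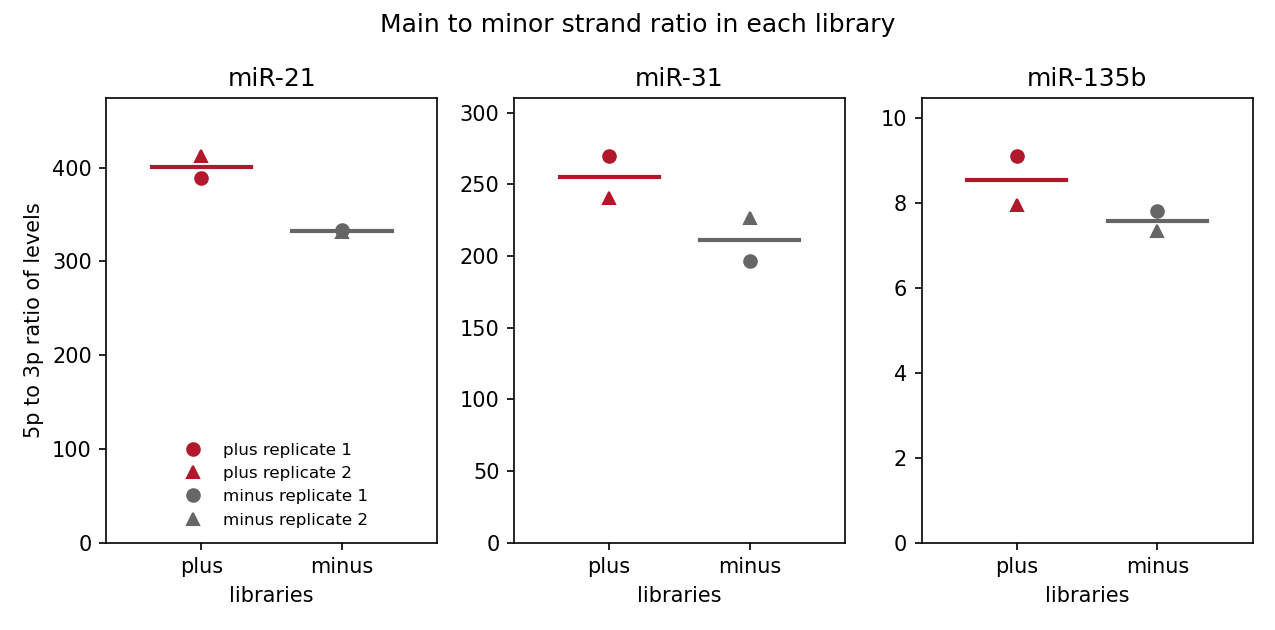
Ratio of the 5p to the 3p level in each library for miR-21, miR-31 and miR-135b, each panel on its own linear axis from 0, with plus libraries in red, minus libraries in grey, circles for replicate 1, triangles for replicate 2 and bars for the mean of 2. The miR-21 ratio stands at 389 and 412 in the plus and at 333 and 331 in the minus libraries.

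The miRNA found to share the seed of miR-21-5p was scarce and lower after induction. miR-590-5p, encoded on chromosome 7, had levels of 76.1 and 44.0 in plus replicates 1 and 2, and 103 and 79.4 in minus replicates 1 and 2. It fell by 0.63 on the log2 scale (standard error 0.24, limma adjusted p = 0.0450). The call was lost whichever library was left out, and the log2 change ranged from −1.02 to −0.24. It was also lost under quantile normalization (adjusted p = 0.171) and with equal library totals (adjusted p = 0.0779). miR-21-5p had on average 27355 times its level, so nearly all reads of the miRNAs found with this seed were miR-21-5p.

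The abundant miRNAs with the pattern most like each main strand over the 4 libraries were found by the root mean square difference of centred log2 levels, among 190 miRNAs at a mean of at least 1000. For miR-21-5p they were miR-10a-5p, miR-10b-5p and miR-7-1-3p, at differences of 0.021, 0.024 and 0.031. For miR-31-5p they were let-7e-5p, miR-423-3p and miR-7-1-3p, at 0.0063, 0.010 and 0.023. For miR-135b-5p they were miR-203, miR-200a-3p and miR-374b-5p, at 0.038, 0.048 and 0.056. After miR-135b-5p, the closest to miR-135a-5p were miR-107 and miR-24-3p, at 0.069 and 0.071. With 4 libraries this likeness is a description only. The 3 closest to miR-135b-5p passed as rises, with log2 changes of 0.26 for miR-203 and miR-200a-3p and 0.27 for miR-374b-5p (limma, adjusted p = 0.0172, 0.0142 and 0.0282). None of those closest to miR-21-5p or miR-31-5p passed. All were chosen for likeness over the same 4 libraries, so like changes follow from the choice and these calls add no separate result.

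Other miRNAs that colorectal tumours are known to carry in excess moved in both directions. Of 38 tested strands of 29 such names, 9 rose, 13 fell and 16 did not pass, 57.9% called against 28.5% over all miRNAs, and the median log2 change was −0.18 against −0.03. The list was drawn up from general knowledge, but with earlier results of these data known. It counts both strands of a hairpin and the miRNAs of a cluster separately. Such strands can share a transcript, so the calls are not independent of each other. The 4 most abundant were miR-221-3p, miR-222-3p, miR-182-5p and miR-92a-3p. miR-182-5p, of the miR-183 cluster, had levels of 98679 and 101027 in plus replicates 1 and 2, and 62955 and 66383 in minus replicates 1 and 2, and rose with a log2 change of 0.63 (limma, adjusted p = 4.48e-08). Its call was lost without plus replicate 1 (adjusted p = 0.0643), without plus replicate 2 (0.0518), with no level filter (0.0564) and with no mean-variance trend (0.0702). miR-221-3p and miR-222-3p, a pair known to repress the cell cycle inhibitor p27, rose with log2 changes of 0.22 each (limma, adjusted p = 0.0438 and 0.0440). Both of these calls were lost whichever library was left out. miR-92a-3p, of the miR-17-92 cluster, had a log2 change of −0.03 and did not pass (limma, adjusted p = 0.814). It passed as a fall under quantile normalization, at −0.14 (adjusted p = 0.0404), and its sign turned under median-ratio scaling, at 0.03. Of the same cluster and list, miR-17-5p, miR-18a-5p, miR-19a-3p, miR-19b-3p and miR-20a-5p passed as falls, with log2 changes from −0.75 to −0.36 (limma). Their partner strands miR-17-3p, miR-18a-3p, miR-20a-3p and miR-19b-1-5p did not pass. These strands lie outside the 4 most abundant of the list, and their calls were not compared between alternatives.

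Of 33 tested strands of 30 names known to be low in colorectal tumours, 7 rose, 5 fell and 21 did not pass, 36.4% called against 28.5% over all miRNAs, with a median log2 change of 0.01 against −0.03. That list was drawn up and counted in the same way. The 4 most abundant were miR-100-5p, miR-26b-5p, miR-378a-3p and miR-9-3p. miR-100-5p had levels of 1159540 and 1456187 in plus replicates 1 and 2, and 1523766 and 1562967 in minus replicates 1 and 2. It fell with a log2 change of −0.25 (limma, adjusted p = 0.0427), a call lost whichever library was left out. Its log2 change was −0.084 without plus replicate 1, −0.41 without plus replicate 2 and 0 under quantile normalization. miR-9-3p rose with a log2 change of 0.37 (limma, adjusted p = 0.000687), lost with minus replicate 2 (adjusted p = 0.0861), plus replicate 1 (0.0762) or plus replicate 2 (0.0958) left out, with no level filter (0.126) and with no mean-variance trend (0.157). miR-26b-5p, at −0.19, and miR-378a-3p, at 0.01, did not pass (limma, adjusted p = 0.0807 and 0.933), though miR-26b-5p passed in 4 alternatives. These were the line as a replicate block (adjusted p = 0.0480), quantile normalization (0.0354), equal library totals (0.0258) and equal totals without the 7 strands (0.0406). The number called was 0 in each list with plus replicate 1 or plus replicate 2 left out, so these counts rest on both plus libraries.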

How the data were processed

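Mature miRNAs were read by small-RNA sequencing in 4 libraries. The authors deposited 1 signal value for each mature miRNA and library. Low values lie near whole multiples of a fixed step in each library, so they were read as scaled read counts. Reads were trimmed with cutadapt, per the labels. The submitters' processing notes list the tools TopHat2 2.0.8b and edgeR and the builds hg19 and GRCh37, without saying what each was used for. The read counter, the miRNA annotation and the kind of adjustment are not given in the sources used. Column names write sh4 where titles write sh2, and columns were matched by library number and index.

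The worth of 1 read, estimated from low values, was 1.03 and 1.02 in plus replicates 1 and 2, and 1.01 and 0.944 in minus replicates 1 and 2, giving 9569066, 10296124, 9768750 and 10273846 estimated reads. From 86.3% to 100% of values under 60 lay within 0.1 of a whole number of reads. No count model was run, because the values are normalised and not counts. Intervals (95% Clopper-Pearson) use the estimated reads. Of 1345 rows, 307 repeat the values of another row, and no strand of miR-21, miR-31, miR-135b or miR-135a is among them.

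limma 3.58.1 (R 4.3.3) was run with a mean-variance trend on log2(value + 1), two-sided, plus against minus, for 709 miRNAs averaging at least 10, and on log2 strand ratios for 183 hairpins. The log2(value + 1) scale understates changes of low miRNAs. The scripts were tested on simulated data. Each line gave 1 library per condition, so the p-values reflect only how far these libraries differ. The lines pair the libraries (plus replicate 1 by elimination), and deviations of same-line libraries from their group means correlated at 0.056 over 709 miRNAs and at 0.177 over those with a mean of at least 1000. Named miRNAs were the members, seed sharers, rank neighbours, the 3 closest in pattern and the 4 most abundant strands of each list. The rule also named the 5 hairpins with the largest change in ratio past the threshold, and none passed. Members and lists were chosen with earlier results of these data known. Alternatives were pseudocounts, level filters, scalings, the trend, a block for the line, other totals behind the shares and each library left out.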

Additional observations from a re-analysis of the deposited data

Results flagged for a closer look

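miR-31-3p moved in opposite directions in the lines, with a log2 change of −0.37 in the sh1 line and 0.03 in the sh2 line. miR-378a-3p did so too, at −0.13 in the sh1 line and 0.15 in the sh2 line. With 1 library per line and condition, neither difference between the lines was tested, and the sh1 values rest on placing plus replicate 1 in that line by elimination.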

How the results depend on the processing

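The 6 strands that did not pass kept that status, with no change of sign, under every alternative run, with miR-135a-5p not tested at a minimum mean of 100. Under quantile normalization, which sets values by rank, the log2 change of miR-21-5p and miR-31-5p was 0 because their rank is the same in each library. Omitting single libraries gave miR-21-5p log2 changes of 0.057 to 0.21, miR-21-3p −0.17 to −0.10, miR-31-5p 0.093 to 0.11, miR-31-3p −0.28 to −0.06, miR-135b-3p 0.029 to 0.24 and miR-135a-5p 0.21 to 0.51. The log2 change of miR-135b-5p ranged from 0.23 to 0.37 over 10 alternatives with all libraries and passed in 4. It did not pass without a level filter or without the trend, at 0.31 in both, at a minimum mean of 100, at 0.31, under quantile normalization, at 0.23, with equal totals, at 0.25, or with equal totals without the 7 strands, at 0.27. With 1 library left out it ranged from 0.15 to 0.46. The 202 called miRNAs became 5 with no level filter and 5 with no trend, 103 under quantile normalization, and 7 to 115 with 1 library left out. In the list of miRNAs raised in colorectal tumours the 22 called became 0, 0 and 14 under these same settings, and 0 to 13 with 1 library left out. In the list of lowered miRNAs the 12 called became 0, 0 and 6, and 0 to 5. Hairpins called by strand ratio were 24 at a minimum mean of 100, 36 with the trend on the lower strand, which brought in miR-21 at 0.27, and 0 to 2 with 1 library left out. Without miR-21-5p in the total, miR-31-5p made up 4.28% of the plus and 4.08% of the minus libraries, and miR-135b-5p 0.113% and 0.0940%. The sign of miR-92a-3p turned to 0.031 under median-ratio scaling and 0.0021 without plus replicate 1, in a range from −0.065 to 0.0021 with 1 library left out. miR-378a-3p turned to −0.21 under quantile normalization, −0.046 and −0.023 with equal totals with and without the 7 strands, −0.017 without minus replicate 1 and −0.16 without plus replicate 2, in a range from −0.16 to 0.18 with 1 library left out. With the line as a replicate block 216 miRNAs were called, miR-135b-5p stayed at 0.31 (limma adjusted p = 0.00136), and among the 7 strands, miR-590-5p, the 3 strand ratios and the 8 abundant strands named from both cancer lists no call other than that of miR-26b-5p changed. The calls of the other miRNAs named were not compared between these fits. Causes were not tested, except that the leave-outs use fewer libraries.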
